A study of Homo sapiens with 4 samples.

Results

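The genes described here encode part of the cohesin machinery of dividing cells: the subunits STAG1 and SMC3, the loader proteins NIPBL and MAU2, the release factors WAPL, PDS5A and PDS5B, the acetyltransferases ESCO1 and ESCO2, and CDCA5. They are 10 of the 19974 protein-coding genes on chromosomes 1 to 22 and X, taken by name, and every name was found in the gene table. Each gene was examined over its whole length plus 100 kb on each side (hg38) in 1 list of CTCF binding sites. The series mapped CTCF by ChIP-seq, the sequencing of DNA recovered with an antibody from crosslinked chromatin, in MDA-MB-435 cells (a long-established line of human melanoma cells), with no genetic change or drug named for the asynchronous cells. It held 2 samples of asynchronous cells with a rabbit antibody against CTCF and 2 samples of mitotic cells, blocked with thymidine and then nocodazole, with a custom antibody against CTCF phosphorylated at pT431. What follows rests on the peaks of asynchronous replicate 1, and 3 samples are not analysed here. Nothing below therefore compares mitotic with asynchronous cells, and no value has a replicate. The word mitotic separates these genes from their meiotic relatives and does not describe the cells of this library.

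Cohesin is a ring of SMC1A, SMC3 and a kleisin subunit, to which STAG1 or STAG2 is bound. NIPBL and MAU2 load the ring onto DNA and it extrudes chromatin loops that halt at CTCF, while WAPL with PDS5A or PDS5B opens the ring and takes it off. In S phase ESCO1 and ESCO2 acetylate SMC3, and sororin, the product of CDCA5, then holds off WAPL so that sister chromatids stay joined. CTCF and cohesin proteins thus work on the same chromatin, and the question followed here is where CTCF peaks lay at the genes that make this machinery.

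The library held 19210460 tags (aligned reads), and its list has 42462 peaks, each 349 bp wide. Tags per peak are given as normalised tags, scaled by the authors to a library of 10000000 tags, with exact Poisson 95% intervals. The intervals cover counting error only, since reads without molecular identifiers are not independent molecules, and these tag counts were not held to 1 tag per position. The median peak had 20.0 normalised tags, and the top 10% of peaks began at 55.2. A peak was counted at a gene end when its centre lay within 1 kb of either annotated end, and as inside or outside the gene when it lay farther than that from both ends.

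A CTCF peak was called at an end of 8 of the 10 genes: STAG1, NIPBL, MAU2, WAPL, PDS5A, PDS5B, ESCO1 and CDCA5 (80.0%, Clopper-Pearson 95% interval 44.4 to 97.5). The share over all protein-coding genes was 28.2%, and 31.2% among the 9855 genes within the range of the members' lengths (22.9 to 416.1 kb). SMC3 and ESCO2 had no peak at either end. Of the 8 peaks, 3 were weak, close to the caller's tag threshold of 15: those of MAU2, WAPL and CDCA5. When peaks had to reach the median score of 39, or to stand at least 8-fold over the surrounding 10 kb, 5 of 10 genes kept an end peak, against 15.2% and 18.6% of all genes. The same 5 genes, STAG1, NIPBL, PDS5A, PDS5B and ESCO1, remained under both limits. The peak of NIPBL, 761 bp from the gene, was the farthest of the 8 from its end, and the closest peak not counted as an end peak lay 1314 bp inside PDS5A. The 10 genes were listed with earlier results of these data known, so the 8 of 10 is a description of them and not a test.

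**Figure D1:**
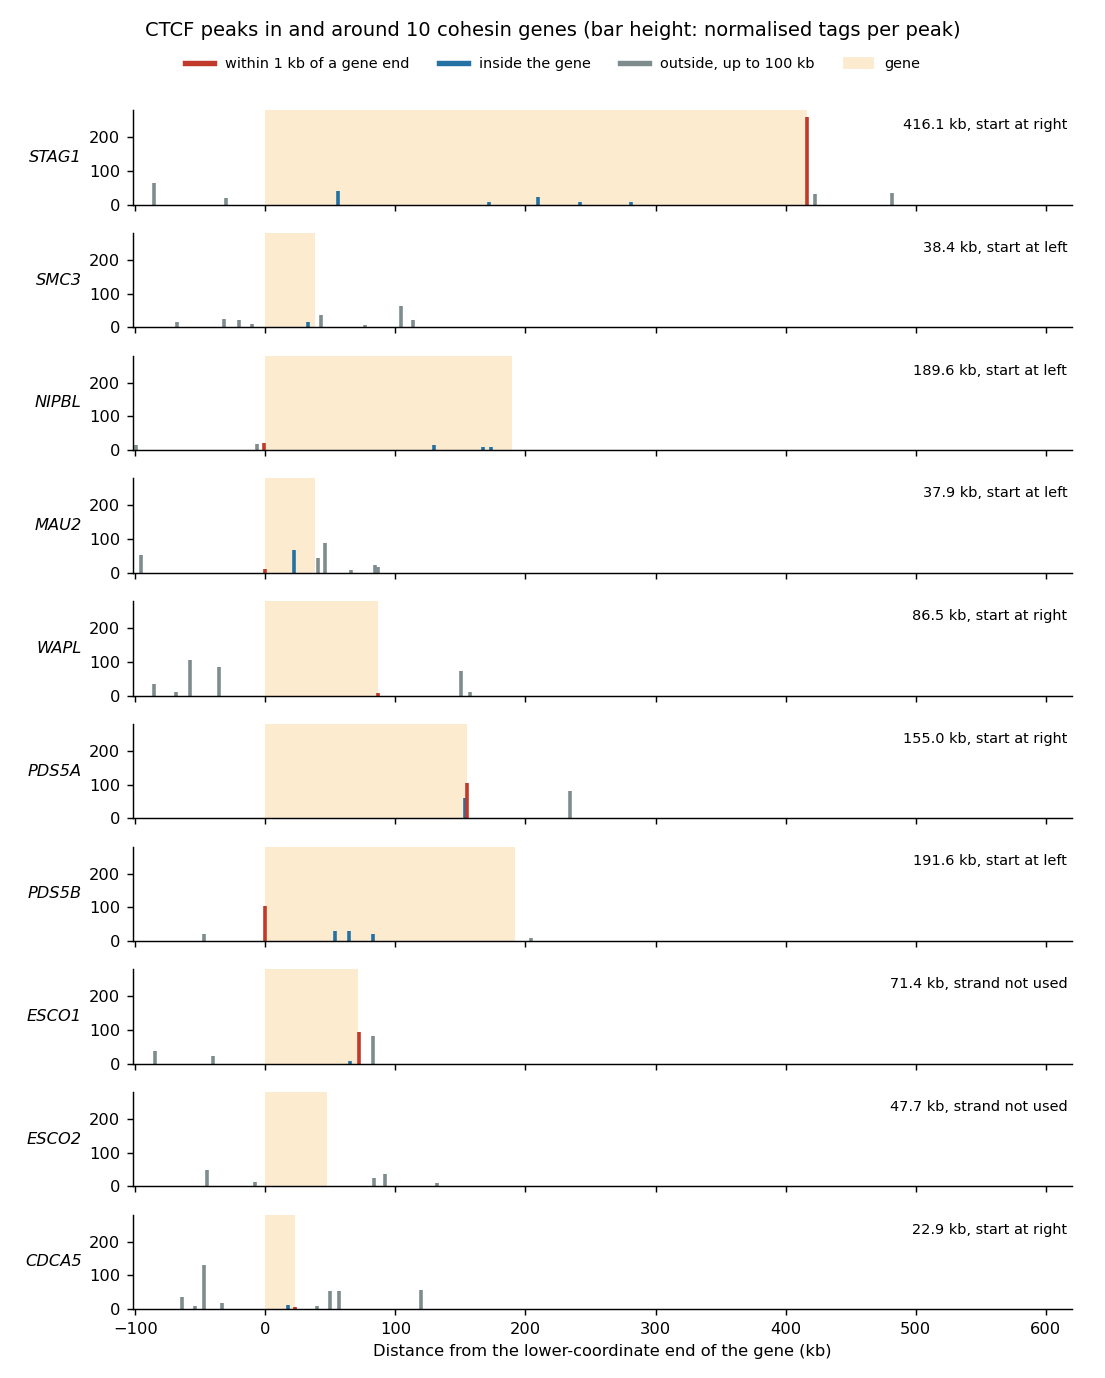
CTCF peaks along the 10 genes, each row a gene with 100 kb on each side: the horizontal axis is the distance in kb from the gene's lower-coordinate end, bar height is normalised tags per peak in the 1 library, and colour gives the peak's place. The highest bar stands at the start of STAG1 (259.8 normalised tags), the next highest is a flanking peak of CDCA5 (132.2), and the bodies of WAPL and ESCO2 are empty.

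Every end peak of a gene whose strand was known lay at the start of the gene. Strand was known for 8 of the 10 genes, all but ESCO1 and ESCO2, and for 15812 protein-coding genes. Of those 8 genes, 7 had a peak within 1 kb of the start (24.2% of all genes of known strand had one) and 0 had one within 1 kb of the far end (6.63% of all). In 6 of the 8 genes with an end peak, the peak also lay within 1 kb of an end of another gene, against 42.6% of all protein-coding genes with an end peak. Those neighbours were the divergent transcripts STAG1-DT, NIPBL-DT, WAPL-DT and PDS5B-DT, and the protein-coding genes SUGP1 beside MAU2 and ZFPL1 beside CDCA5. The end peaks of PDS5A and ESCO1 had no other annotated gene end within 1 kb.

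The 8 end peaks spanned a wide range of tag counts. STAG1 had 259.8 normalised tags, PDS5A 105.7, PDS5B 103.1 and ESCO1 92.7. The other 4 had 22.1 at NIPBL, 10.7 at MAU2, 7.81 at WAPL and 7.55 at CDCA5. NIPBL lay just above the median of all peaks, and MAU2, WAPL and CDCA5 well below it. No member lay between 22.1 and 92.7, a range picked after the values were seen, which held 44.3% of the 5637 genes with an end peak. The strongest end peak of a gene had a median of 22.9 normalised tags over those 5637 genes (interquartile range 11.5 to 50.2). Peaks in the top 10% stood at an end of 4 of the 10 genes and of 6.24% of all protein-coding genes.

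**Figure D2:**
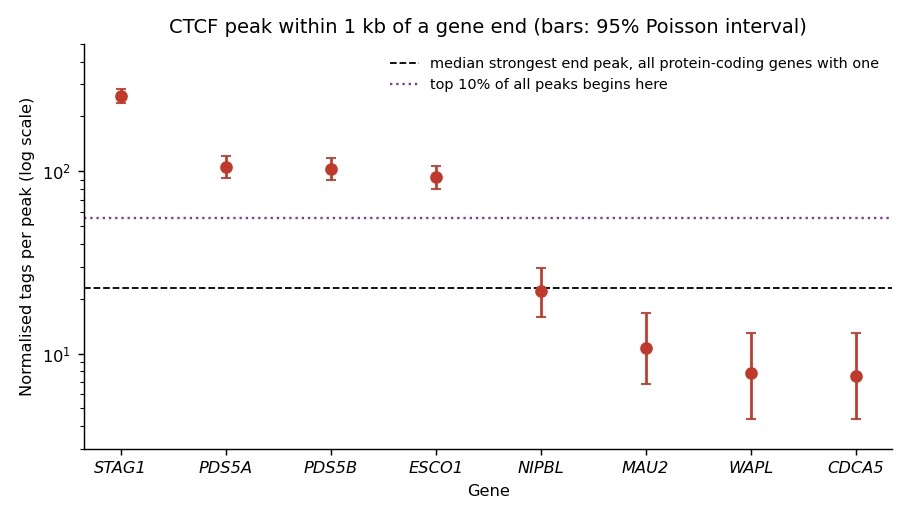
Normalised tags (log scale) of the peak within 1 kb of a gene end, for the 8 genes that had one, with 95% Poisson intervals from the tags of 1 library. STAG1, PDS5A, PDS5B and ESCO1 lie above the start of the top 10% of all peaks (55.2, dotted), and NIPBL lies beside the median of all genes with an end peak (22.9, dashed) with MAU2, WAPL and CDCA5 below it.

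STAG1 is the subunit that, as the alternative to STAG2, binds the rest of the ring and contacts CTCF. The gene covers 416.1 kb of chromosome 3 (136336236 to 136752378) and is read towards lower coordinates. Its start carried the peak of rank 7 by score and rank 13 by normalised tags among all 42462 peaks (chromosome 3, 136752228 to 136752576). That peak was centred 24 bp upstream of the start and held 259.8 normalised tags (237 to 284), with a focus ratio of 0.906. The focus ratio is the fraction of a peak's tags that fall where a point source would put them, on the proper side of its middle, and its median over all peaks was 0.847. Only 5 protein-coding genes, STAG1 included, had an end peak of at least 259.8 normalised tags. The interval of STAG1 did not overlap that of any other end peak among the 10 genes.

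The start of STAG1 is shown because it held 2 copies of the CTCF core letters under that peak. The sequence is chr3:136752349-136752628 (GRCh38.p14, minus strand, RefSeq), 250 bases before the start and the first 30 bases of the gene, with matches to the core letters (CCA, any 2 bases, AG, any 2 bases, GGC) in capitals.
STAG1: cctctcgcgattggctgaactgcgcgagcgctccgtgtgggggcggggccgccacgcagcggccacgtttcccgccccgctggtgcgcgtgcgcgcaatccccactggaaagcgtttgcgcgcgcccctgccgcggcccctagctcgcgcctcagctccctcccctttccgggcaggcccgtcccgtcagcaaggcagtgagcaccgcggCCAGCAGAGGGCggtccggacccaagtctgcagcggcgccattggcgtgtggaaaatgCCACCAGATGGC
The first match, CCAGCAGAGGGC, began 40 bases before the start and its middle lay 10 bp from the peak centre. The second, CCACCAGATGGC, began at base 19 of the gene, 47 bp from the peak centre, and both read in the direction of the gene. The motif was searched on both strands of the promoters of 15812 protein-coding genes, each 300 bases from 250 before to 50 after the start. At least 1 match was found in 2.69% of all promoters, and in 7.25% of the 2316 promoters overlapped by a peak against 1.91% of the other 13496. STAG1 was the 1 of 8 matched members with a match, and 10 of the 15812 promoters (0.0632%) had at least 2 matches. A match is a run of letters and does not show where the protein bound.

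Inside STAG1, 5 further peaks were spread over the gene body. The strongest held 39.6 normalised tags (31.2 to 49.5), 55.6 kb from the far end of the gene, and the weakest held 7.81. The longest peak-free stretch at the gene covered 135 kb next to the start. It exceeded 87.5% of all distances between neighbouring peaks, but it was picked as the longest at its gene, which favours a high share. Density inside was 1.21 peaks per 100 kb (0.392 to 2.82), against 1.49 over all protein-coding genes. Outside, the nearest peaks lay 6.29 kb upstream of the start with 30.5 normalised tags and 30.2 kb beyond the far end with 19.0, the latter inside PCCB.

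SMC3, which forms one of the coiled-coil arms of the ring and carries the lysines that ESCO1 and ESCO2 acetylate, had no peak at either end. It spans 38.4 kb of chromosome 10 (110567695 to 110606048). Its 1 inside peak held 16.1 normalised tags (11.0 to 22.9) and lay 33.0 kb past the start, towards the far end. The nearest outside peaks lay 4.44 kb beyond the far end with 37.2 normalised tags (28.9 to 46.6) and 10.5 kb upstream of the start with 9.37. With a window of 5 kb the former counted as an end peak, and 9 of 10 genes then had one, against 52.9% of all genes. The flanks of SMC3 held 8 peaks, as many as those of CDCA5 and more than those of the other 8 genes. A peak of 64.8 normalised tags inside the neighbouring RBM20 was the strongest of the 8.

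The loader genes had weaker peaks at their starts than STAG1, PDS5A, PDS5B or ESCO1. NIPBL, the larger loader subunit and a stimulator of cohesin's ATPase, spans 189.6 kb of chromosome 5 (36876769 to 37066413). Its end peak (36875834 to 36876182) was centred 761 bp upstream of the start inside NIPBL-DT. It held 22.1 normalised tags (15.8 to 29.6), and its focus ratio of 0.757 was below the interquartile range of peaks of like tag count, whose lower bound was 0.822. With a window of 500 bp it no longer counted, and 7 of 10 genes had an end peak, against 20.4% of all genes. A second peak of 19.5 normalised tags lay 6.13 kb upstream of NIPBL, at the other end of NIPBL-DT. The 3 peaks inside NIPBL held 15.6, 9.63 and 8.33 normalised tags, and all lay between 129 and 174 kb past the start. The nearest peak beyond the far end of NIPBL lay 183 kb away, with 7.55 normalised tags, outside the 100 kb flank, so that the upper flank held none.

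MAU2, the partner that stabilises NIPBL, spans 37.9 kb of chromosome 19 (19320829 to 19358754). Its end peak (19320536 to 19320884) was centred 119 bp upstream of the start, held 10.7 normalised tags (6.77 to 16.7) and had a focus ratio of 0.660. The intervals of NIPBL and MAU2 overlapped. The strongest CTCF peak of MAU2 was inside the gene, 22.1 kb past the start, with 69.0 normalised tags (58.0 to 82.0) and a fold of 44.7 over the surrounding 10 kb. It was the strongest inside peak of the 10 genes, though its interval overlapped that of the inside peak of PDS5A. Beyond the far end, peaks followed at 2.48 kb with 42.9 normalised tags and at 8.26 kb with 87.2. The nearest peak upstream of the start lay 95.6 kb away and held 52.6 (42.8 to 63.9). The peak at the start of MAU2 was thus weaker than the inside peak and than the nearest peaks on both sides of the gene.

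Among the release genes, PDS5A and PDS5B had strong end peaks and WAPL a weak one whose interval overlapped neither. WAPL, which opens the ring between SMC3 and the kleisin, spans 86.5 kb of chromosome 10 (86435256 to 86521792). Its end peak (86522014 to 86522362) was centred 396 bp upstream of the start and held 7.81 normalised tags (4.37 to 12.9), that is 15 tags, at a fold of 4.48 where 4 was required. WAPL had no inside peak. Its whole length lay in a peak-free stretch of 122 kb that reached from the end peak to the nearest peak beyond the far end, 35.3 kb from the gene. That outside peak held 85.4 normalised tags (72.8 to 99.5), and another, 57.9 kb from the far end, held 106.5 (92.6 to 122). On the upstream side the nearest outside peak held 73.4 normalised tags (61.8 to 86.6) at 63.8 kb.

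PDS5A and PDS5B are paralogs that bind cohesin in exchange with NIPBL and take part both in release with WAPL and in acetylation. PDS5A spans 155.0 kb of chromosome 4 (39822863 to 39977911), and its end peak (39977834 to 39978182) was centred 97 bp upstream of the start. PDS5B spans 191.6 kb of chromosome 13 (32586452 to 32778019), and its end peak (32586196 to 32586544) was centred 82 bp upstream of the start. The 2 peaks held 105.7 (91.6 to 121) and 103.1 (89.2 to 118) normalised tags, and their intervals overlapped over most of their width. Their surroundings differed. PDS5A had a second peak 1.31 kb past the start with 61.2 normalised tags (50.8 to 73.6) and no other inside. The remaining 154 kb of PDS5A formed part of a peak-free stretch of 281 kb, also picked as the longest at its gene. It exceeded 96.6% of all distances between neighbouring peaks. PDS5B instead held 3 inside peaks of 29.2, 30.5 and 19.3 normalised tags, between 53.3 and 82.8 kb past the start. Outside PDS5A the nearest peaks lay 78.9 kb upstream with 81.2 normalised tags, at ends of N4BP2 and LOC344967, and 127 kb beyond the far end with 26.3. Outside PDS5B the nearest peaks lay 47.4 kb upstream with 20.3 normalised tags, at an end of N4BP2L2, and 12.8 kb beyond the far end with 8.59.

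The promoters of both paralogs are shown because peaks of like strength covered all 250 bases before either start. They are chr4:39977912-39978161 (minus strand) and chr13:32586202-32586451 (plus strand), both of GRCh38.p14 from RefSeq, and capitals mark the short motif AGGGGGC.
PDS5A: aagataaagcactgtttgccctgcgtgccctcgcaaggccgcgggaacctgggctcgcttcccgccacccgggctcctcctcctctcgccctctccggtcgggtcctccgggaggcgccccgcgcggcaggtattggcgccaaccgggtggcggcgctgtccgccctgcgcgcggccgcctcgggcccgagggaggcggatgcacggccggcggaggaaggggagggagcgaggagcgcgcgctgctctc
PDS5B: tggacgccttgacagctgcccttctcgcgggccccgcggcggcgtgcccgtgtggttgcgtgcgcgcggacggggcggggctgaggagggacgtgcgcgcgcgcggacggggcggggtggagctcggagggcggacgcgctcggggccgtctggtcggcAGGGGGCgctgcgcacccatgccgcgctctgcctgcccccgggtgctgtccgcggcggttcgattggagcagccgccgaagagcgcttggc
Neither held the core letters found at STAG1. AGGGGGC, a piece of the CTCF core chosen after the sequences had been seen, began 91 bases before the start of PDS5B and was not found for PDS5A. It was present, on either strand, in 17.9% of all 15812 promoters of 300 bases, in 26.1% of those under a peak and in 16.6% of the others. The bases shown were 75.2% G or C for PDS5A and 78.0% for PDS5B, against a median of 62.4% in the 250 bases before the start over all promoters.

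The acetyltransferase genes differed, with a strong end peak at ESCO1 and none at ESCO2. ESCO1, which acetylates SMC3 through the cell cycle, spans 71.4 kb of chromosome 18 (21529284 to 21600704). A peak 308 bp outside its upper end (21600838 to 21601186) held 92.7 normalised tags (79.5 to 107), at a focus ratio of 0.889 and a fold of 35.7. A further strong peak of 82.8 (70.4 to 96.7) lay 11.5 kb from the same end, at an end of SNRPD1. The intervals of these 2 peaks overlapped. The 1 peak inside ESCO1 held 9.11 normalised tags, and the nearest peak below its lower end held 23.7 at 40.0 kb. ESCO2, the enzyme of S phase whose loss causes Roberts syndrome, spans 47.7 kb of chromosome 8 (27771974 to 27819660) and had no peak at its ends or inside. The peaks on either side of it were 91.7 kb apart, farther than 78.8% of distances between neighbouring peaks. With no peak inside, that distance had to exceed the gene's 47.7 kb. The nearest peaks held 14.3 normalised tags (9.26 to 20.4) at 7.98 kb below the gene, inside CCDC25, and 25.0 (18.4 to 33.1) at 36.0 kb above it. A place without a called peak has no value in the list. How many tags lay at ESCO2, and which of the calling limits they missed, is therefore unknown.

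CDCA5, the gene of sororin, spans 22.9 kb of chromosome 11 (65061093 to 65084040), the shortest of the 10 genes. Its end peak (65083863 to 65084211) was centred 3 bp past the start, the closest of the 8, and was the weakest with 7.55 normalised tags (4.37 to 12.9), or 15 tags, and a focus ratio of 0.659. The inside peak held 12.0 normalised tags, 5.70 kb past the start. The nearest outside peaks of CDCA5 held 7.81 normalised tags at 16.8 kb upstream of the start and 16.7 at 33.3 kb beyond the far end. Its flanks held 8 peaks, the strongest at ARL2, 46.8 kb beyond the far end, with 132.2 normalised tags (116.5 to 149.5). That peak had a focus ratio of 0.689 and a local background of 7.94 normalised tags, where the median over all peaks was 1.47. Local background is the normalised tags divided by the fold over the surrounding 10 kb.

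The starts of MAU2 and CDCA5 are shown for contrast, as the weak end peaks that covered most of their promoters. They are chr19:19320579-19320828 (plus strand, 250 of 250 bases under the peak) and chr11:65084041-65084290 (minus strand, 171 of 250), both of GRCh38.p14 from RefSeq.
MAU2: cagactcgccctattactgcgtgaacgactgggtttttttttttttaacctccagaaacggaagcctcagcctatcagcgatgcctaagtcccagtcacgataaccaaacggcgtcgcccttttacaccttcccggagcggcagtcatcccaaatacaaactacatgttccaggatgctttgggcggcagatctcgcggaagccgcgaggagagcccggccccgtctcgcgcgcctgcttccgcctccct
CDCA5: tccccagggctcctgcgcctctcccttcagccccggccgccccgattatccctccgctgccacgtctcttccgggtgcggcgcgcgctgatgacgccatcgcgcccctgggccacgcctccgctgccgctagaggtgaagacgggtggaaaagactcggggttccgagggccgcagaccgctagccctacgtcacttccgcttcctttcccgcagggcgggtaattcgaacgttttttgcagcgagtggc
Neither the core letters nor AGGGGGC were found in them, so all bases are in lower case. Their G or C content was 56.8% for MAU2 and 67.6% for CDCA5, on either side of the median of 62.4% over all promoters. WAPL, whose end peak was also weak, had 77.2%, above PDS5A, and STAG1, whose peak was the strongest, had 72.1% in its 280 bases. The lack of these letters says nothing of whether CTCF bound there.

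Inside the 10 genes 16 peaks were found, 1.29 per 100 kb (0.739 to 2.10), against 1.49 over all protein-coding genes and 1.58 over those within the members' length range. An inside peak was present in 8 of 10 genes, all but WAPL and ESCO2, against 63.9% of genes within that length range (41.9% of all). The interval of the members' density held both genome values. The flanks held 45 peaks, from 1 at PDS5A to 8 at SMC3 and CDCA5. Their median of 4.5 per gene was close to the median of 5 over all genes (interquartile range 3 to 7). The members stood above the background share at their ends, and where strand was known this held for the start only. They did not stand above it in the density of peaks in their bodies or the number in their flanks.

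Strong peaks had higher focus ratios than weak ones, at these genes as in the whole list. Of all 69 peaks within the 10 genes and their flanks, 16 (23.2%) belonged to the top 10% by tags: 4 at ends, 2 inside and 10 outside. Their focus ratios had a median of 0.887 (lowest 0.689, highest 0.934), against 0.899 for all peaks in the top 10%. Weak peaks of at most 10 normalised tags numbered 15 of the 69 (21.7%), against 16.2% of all peaks. Their focus ratios had a median of 0.750, against 0.769 for all such peaks. Among end peaks, PDS5B had the highest focus ratio, 0.934, and CDCA5 and MAU2 the lowest.

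**Figure D3:**
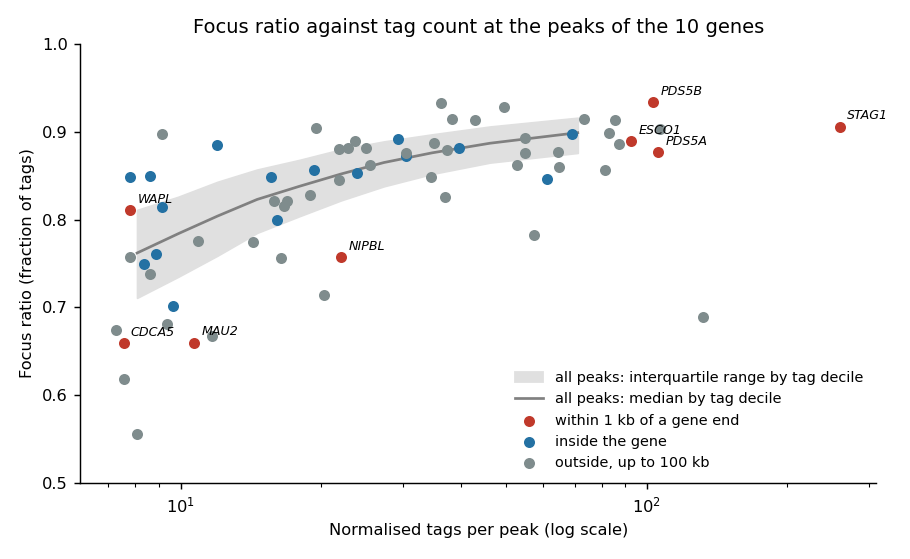
Focus ratio (vertical, a fraction) against normalised tags (horizontal, log scale) for the 69 peaks of the 10 genes and their flanks, coloured by place, with the median and interquartile range of all peaks by tag decile in grey. The end peaks of STAG1, PDS5A, PDS5B and ESCO1 lie at the upper right, those of NIPBL, MAU2 and CDCA5 fall below the grey band, and the grey point of 132.2 normalised tags and focus ratio 0.689 is the peak at ARL2.

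The gene group was then set beside related lists. Of 16 other genes of cohesin and cohesion, 8 had an end peak (50.0%, 24.7 to 75.3), led by REC8, the meiotic kleisin, with 1183.2 normalised tags. Without CTCF, RAD21, REC8 and STAG3, left out after their raised local background had been seen, 5 of 12 had one (41.7%, 15.2 to 72.3). Of 14 genes of condensin and the SMC5/6 complex, relatives of cohesin that compact chromosomes and repair DNA, 4 had one (28.6%, 8.39 to 58.1), led by NSMCE4A with 64.0. The intervals of these lists overlapped one another, and the difference between them was not tested. Among paralogs, STAG2 on chromosome X had an end peak of 74.7 normalised tags beside the 259.8 of STAG1, and SMC1A, the partner of SMC3, had none. The remaining core gene of mitotic cohesin, RAD21, had 9.63 at an end.

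**Figure D4:**
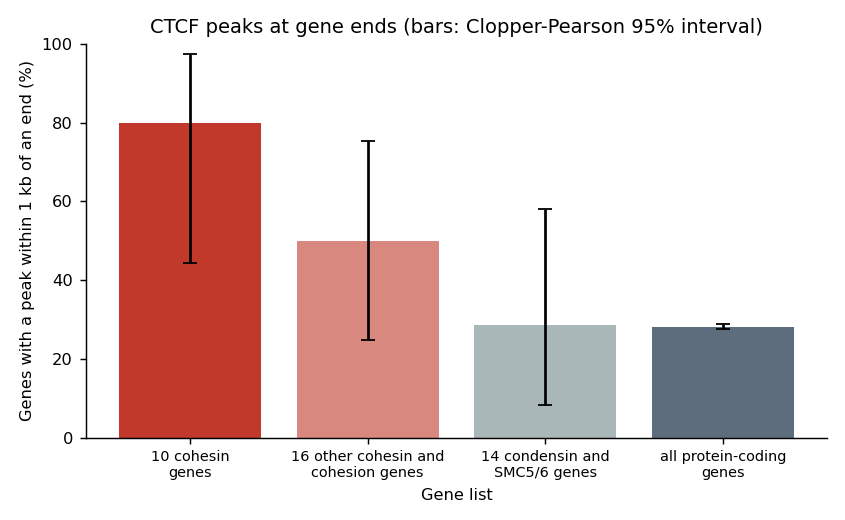
Share of genes with a CTCF peak at an end (vertical, percent, peak centre at most 1 kb away) for the 10 cohesin genes, the 2 related lists and all 19974 protein-coding genes, with Clopper-Pearson 95% intervals over genes of 1 library. The share was 80.0% for the 10 genes, 50.0% for other cohesin and cohesion genes, 28.6% for condensin and SMC5/6 genes and 28.2% for all.

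Local background at the members was set beside that at REC8, CTCF, RAD21 and STAG3, whose raised background had been seen beforehand. Among 2851 genes with at least 3 peaks in the gene and 1 kb around it, the highest local background there was set over the median of the 6 closest outside peaks. This ratio reached 1.94 for STAG1, 1.91 for PDS5B and 1.52 for NIPBL, the 3 members with enough peaks, at ranks 553, 574 and 1053, with a median of 1.34 over all these genes. REC8 had 66.3, CTCF 16.3, RAD21 16.2 and STAG3 13.5, at ranks 1, 2, 3 and 4, so every other gene had to lie below them. Of the members with fewer peaks, PDS5A had the highest ratio, 4.70, with 2 neighbouring peaks whose surrounding 10 kb each contain the other. What this closeness adds to the ratio was not tested. ESCO1 had 1.65, WAPL 1.01, MAU2 0.993, SMC3 0.792 and CDCA5 0.566, so local background was not raised at all members. The 6 outside peaks of STAG1 had a median local background of 2.41, higher than the 1.31 to 2.03 of the other members with a peak. With no control library named, extra DNA copies cannot be told apart from binding there.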

How the data were processed

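CTCF ChIP-seq of asynchronous MDA-MB-435 cells, replicate 1, was analysed from 1 deposited peak list, called on that library alone. The submitters' processing notes list Bowtie2, HOMER and hg38 (version: not given in the sources used here). HOMER findPeaks ran in its factor style without a named control library, per the file headers. Its tag threshold was 15 (false discovery rate 0.001), and it required a 4-fold excess over the local 10 kb and a Poisson p of 1e-04 against it. The deposited tag signal is scaled to 10000000 tags, of 19210460 in all. The deposited focus ratio is a fraction, the score is the caller's own, and the folds over the local region and for clonality are ratios made by the authors' caller. The deposited p-value was not used. Peaks on chromosomes 1 to 22 and X were kept (42388).

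Gene ends came from RefSeq on GRCh38.p14, which has the hg38 chromosomes. Strand and promoters came from a RefSeq promoter table, which matched 8 members and 15812 protein-coding genes. Exons and peak sequences were not used here. Distances run from peak centres. There is 1 library, so no test was made. Shares have Clopper-Pearson and tags Poisson 95% intervals. Members, lists and alternatives were chosen with earlier results of these data known. All 10 members are named with every end peak, the nearest outside peaks and the strongest inside peak. Neighbours that share an end peak are named, and only some of those at a nearest outside peak. A few further peaks and genes were named after their values were seen. Counting and motif search were tested on simulated data, 200 planted peaks or motifs of each kind, and recovered all 200. The motifs were planted in random sequences of A and T only, so stray matches in promoters rich in G and C were not tested. Software was matplotlib 3.10.9, scipy 1.17.1, pandas 2.3.3, numpy 2.4.6 and Python 3.11.15.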

Additional observations from a re-analysis of the deposited data

How the results depend on the processing

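The count of members with an end peak was 7 with a window of 500 bp, 9 with 5 kb, 8 by any overlap, and 5 both at or above the median score and at least 8-fold over the local region. The count of all protein-coding genes with one, 5637 (28.2%), was 4080 (20.4%) with a window of 500 bp. It was 10568 (52.9%) with 5 kb and 6008 (30.1%) by any overlap. It was 3044 (15.2%) at or above the median score, 3724 (18.6%) at least 8-fold and 3070 among the 9855 genes in the members' length range. Inside peaks numbered 6 of 16 at or above the median score, against 9085 of 18645 summed over all protein-coding genes. Flank peaks, 45 over 100 kb each side, numbered 29 at or above the median score (59706 of 99835 over all genes), 27 over 50 kb (2.76 per 100 kb) and 102 over 200 kb (2.56 per 100 kb, against 2.27), since the length searched changed. Merging peaks within 1 kb changed neither count. Of 8 member promoters, the stricter motif (CC, any 3 bases, AGGGGGC) was found in 0, against 2.3% of all 15812 promoters. The looser one (CC, any 3 bases, AG, any 2 bases, GGC) was found in 2, STAG1 and NIPBL. Its share was 12.9% of all promoters and 27.1% of those under a peak. The end peak of NIPBL covered none of the 250 bases before its start. AGGGGGC, chosen after seeing the data, was found in 1, against 17.9% of all. The 8 other cohesin and cohesion genes with an end peak fell to 5 without CTCF, RAD21, REC8 and STAG3, a choice also made after seeing the data. With a window of 5 kb the strongest end peak of MAU2 was the one of 42.9 normalised tags. No paired analysis was possible because 1 of the 4 samples was analysed. Weak end peaks of 15 tags rest on few counts, and nothing is known below the calling limit.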
